A study of Mus musculus with 3 samples.

Results

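A group of 1423 tumor T cells with high levels of Penk, Cd81 and Cd83 was described among 28452 CD8+ T cells, against the other 27029. Its members were chosen by a measured score, the UMIs (unique molecular identifiers, each counting 1 captured RNA molecule) of Penk, Cd81, Cd83, Il4i1, Plk2 and Cd70 summed and divided by all UMIs of the cell. Cells of 3 libraries with 2000 to 120000 UMIs and at most 20% of UMIs from mitochondrial genes were pooled, and the 5% with the highest score were taken. Scores and levels are given as CPM, UMIs per 1000000 UMIs. The lowest member scored 706.81 and the highest other cell 706.37 CPM, so that the limit cut through a continuous range, with 177 members within 10% above it and 236 other cells within 10% below it. The median member scored 1091 and the highest 12413 CPM, while 58.1% of the other cells had no UMI of these 6 genes. The levels of the 6 genes are therefore given as a description, and tests were run only on other genes.

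The cells were pmel T cells, CD8+ cells with a transgenic T cell receptor for the melanocyte antigen gp100 and the congenic marker Thy1.1, transferred into irradiated mice bearing B16F10 melanoma. On day 18 after tumor injection, live cells carrying Thy1.1 and CD8 were taken from dissociated tumors by flow sorting and profiled with droplet 3' RNA sequencing. The 3 groups were low-dose regimens named for the cytokine of the culture before transfer, sIL-2 (an engineered high-affinity form of IL-2), then IL-2/21-Trikine (a fusion that brings the receptors of IL-2 and IL-21 together), then sIL-2 + IL-21, and sets of 3 values below follow this order. By the study's methods the last group was given only sIL-2 once the cells were in the mice. Each group was 1 library, no untreated group was included, and the number of mice pooled was not given in the sources used here, so treatments are compared by size with intervals for counting error only and with no test. All groups share the transgenic donor line, the irradiated host, the tumor line and the time point. The cells were sorted on Thy1.1 and CD8, and their receptor chains were not checked here.

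By way of background, none of the score genes is a lineage gene of T cells. Penk encodes proenkephalin, the precursor of the enkephalin opioid peptides. Cd81 encodes a tetraspanin, a membrane scaffold protein found on B cells and T cells. Cd83 encodes a surface glycoprotein of activated lymphocytes and mature dendritic cells, Il4i1 a secreted oxidase of aromatic amino acids, Plk2 a polo-like kinase induced by stress and by growth signals, and Cd70 the ligand of the costimulatory receptor CD27. Several of them are induced by antigen receptor signals, which in T cells run through calcium, AP-1 and NF-kB factors, so the gene lists below were built around those pathways, their cytokine and receptor targets, and the other cell types that a tumor sort could carry.

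RefSeq promoter windows (GRCm38.p6, 250 bases before to 50 after the gene start) were available for Cd81, Il4i1 and Plk2, and are shown because these genes were scored together. A script searched both strands for TGACGTCA (the cAMP response element, CRE), TGCGTCA (a CRE-like letter order known from the enkephalin gene), TGANTCA (AP-1) and the kappaB consensus, and capitals mark matches.
Plk2, chr13:110394794-110395093, plus strand: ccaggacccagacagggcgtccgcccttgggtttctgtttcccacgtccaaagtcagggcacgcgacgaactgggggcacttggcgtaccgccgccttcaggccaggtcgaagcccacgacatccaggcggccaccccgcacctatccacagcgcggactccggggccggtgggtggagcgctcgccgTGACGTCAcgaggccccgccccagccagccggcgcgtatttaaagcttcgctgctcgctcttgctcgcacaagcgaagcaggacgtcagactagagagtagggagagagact
Cd81, chr7:143052500-143052799, plus strand: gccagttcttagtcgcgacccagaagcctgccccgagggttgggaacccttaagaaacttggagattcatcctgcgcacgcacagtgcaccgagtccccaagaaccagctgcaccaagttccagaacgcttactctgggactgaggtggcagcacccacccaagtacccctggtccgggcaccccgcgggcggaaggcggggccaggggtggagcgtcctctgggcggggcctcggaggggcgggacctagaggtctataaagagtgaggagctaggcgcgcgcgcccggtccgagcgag
Il4i1, chr7:44836038-44836337, plus strand: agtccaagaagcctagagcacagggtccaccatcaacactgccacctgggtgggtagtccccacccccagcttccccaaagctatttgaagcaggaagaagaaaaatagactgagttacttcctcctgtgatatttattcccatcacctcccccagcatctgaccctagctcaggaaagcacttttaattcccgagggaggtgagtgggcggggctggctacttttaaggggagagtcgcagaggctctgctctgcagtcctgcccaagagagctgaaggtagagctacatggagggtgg
The Plk2 window held the full CRE at position -62 from the start, a letter order present in 507 of 27025 mouse windows (1.88%). The windows of Cd81 and Il4i1 held none of these letter orders. CRE-like letters were in 2.19% of all windows, AP-1 letters in 7.93% and the kappaB consensus in 4.35%. Among the genes that stood highest in members outside the score, the window of Cd63 held the CRE-like letters on its minus strand at -91, that of Zbtb46 the AP-1 letters at -61 and that of H2-Aa the full CRE at -74 and the kappaB consensus at -131. The other 8 of 11 genes with a window held none. Such matches describe letters and not binding.

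The members were T cells by their transcripts. Of 1423 members, 5 lacked any UMI of Cd3d, Cd3e, Cd3g, Trac, Cd8a and Cd8b1 (0.351%), a higher share than the 16 of 27029 among the other cells (0.0592%). Of 14 T cell identity genes (median log2 fold change 0.05 beside -0.02 over all genes), 4 were called higher in members (Trbc1, Trbc2, Cd5 and Cd8a), none was lower and 10 did not pass the test. The call of Trbc1 was lost with any library left out. Without cells holding 3 or more UMIs of genes of other cell types, neither Trbc1 nor Cd5 was called. Cd8a, the alpha chain of the CD8 coreceptor, was at 474, 351 and 317 CPM in members, against 368, 311 and 227 CPM in the other cells. Members were somewhat deeper than other cells in 2 libraries, with a median of 15750 against 13232 UMIs under sIL-2 and 14389 against 11453 under IL-2/21-Trikine, and shallower under sIL-2 + IL-21 (13719 against 14631). Mitochondrial shares were alike, with medians of 1.33% to 1.41% in members and 1.27% to 1.34% in the other cells. A barcode occurred in more than 1 library for 144 cells, 10 of them members, and no such barcode was a member in 2 libraries.

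The name of the group held for its sum but not for most single cells. Only 73 of 1423 members (5.13%, exact binomial 95% interval 4.04 to 6.41) had UMIs of Penk, Cd81 and Cd83 together, and 609 (42.8%, 40.2 to 45.4) had none of Penk or Cd81. Ranking the 6 genes by UMIs within each member, Cd83 led in 441 members (31.0%), Plk2 in 395 (27.8%), Penk in 341 (24%), Cd81 in 172 (12.1%), Cd70 in 64 (4.50%) and Il4i1 in 10, with 65 members tied. Of the 6 genes, 1 was detected in 18.4% of members, 2 in 29.9%, 3 in 29.3%, 4 in 16.8%, 5 in 4.85% and all 6 in 0.773%. The cells are therefore called members of the score group, and 2 shapes are kept apart where they differ, members led by Penk or Cd81 and members led by Cd83 or Plk2.

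Penk in members was highest under sIL-2. In members it stood at 698 CPM under sIL-2 (exact Poisson interval 675 to 721), 441 CPM under IL-2/21-Trikine (427 to 456) and 189 CPM under sIL-2 + IL-21 (181 to 198), while the other cells had 6.92, 9.24 and 7.55 CPM. Penk UMIs were in 45.5%, 40.3% and 24.3% of members, or 38.1%, 29.9% and 15.2% with each cell thinned to 2000 UMIs, against 0.844%, 1.18% and 0.999% of thinned other cells. Where Penk led, it made up a median of 87.5% of a member's score UMIs, and 1 member held 194 Penk UMIs. Penk-led cells were 39.6% of members under sIL-2 (33.7 to 45.7), 29.3% under IL-2/21-Trikine (25.5 to 33.4) and 12.8% under sIL-2 + IL-21 (10.3 to 15.7). As Penk is part of the score, these values describe the choice of cells. Over all kept cells Penk was at 34.1 CPM under sIL-2 (33.1 to 35.1), 31.2 CPM under IL-2/21-Trikine (30.4 to 32.1) and 18.1 CPM under sIL-2 + IL-21 (17.5 to 18.8), a much smaller gap between the first 2 libraries than within members.

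Cd81, Plk2 and Cd70 ran the other way. Cd81 was at 99.2, 143 and 183 CPM in members, Plk2 at 235, 298 and 352 CPM, and Cd70 at 72.6, 116 and 149 CPM, each lowest under sIL-2 and highest under sIL-2 + IL-21. The other cells showed the same order in these genes, Cd81 at 3.68, 5.37 and 15.5 CPM, Plk2 at 19.6, 33.3 and 37.8 CPM and Cd70 at 8.97, 15.5 and 29.0 CPM. Cd83 was level, at 330, 312 and 322 CPM in members, the log2 ratio of IL-2/21-Trikine over sIL-2 being -0.08 (-0.17 to 0.01). Il4i1 was at 39.5 CPM under sIL-2 and at 25.4 and 25.1 CPM in the other 2 libraries, whose log2 ratio was 0.02 (-0.25 to 0.29). Since these genes chose the members, their levels over all kept cells are given too. Cd81 was at 7.44, 12.4 and 25.2 CPM, Plk2 at 28, 46.8 and 56.1 CPM, Cd70 at 11.5, 20.6 and 36.0 CPM, and Cd83, which was level in members, at 42.1, 57.1 and 62.3 CPM.

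**Figure D1:**
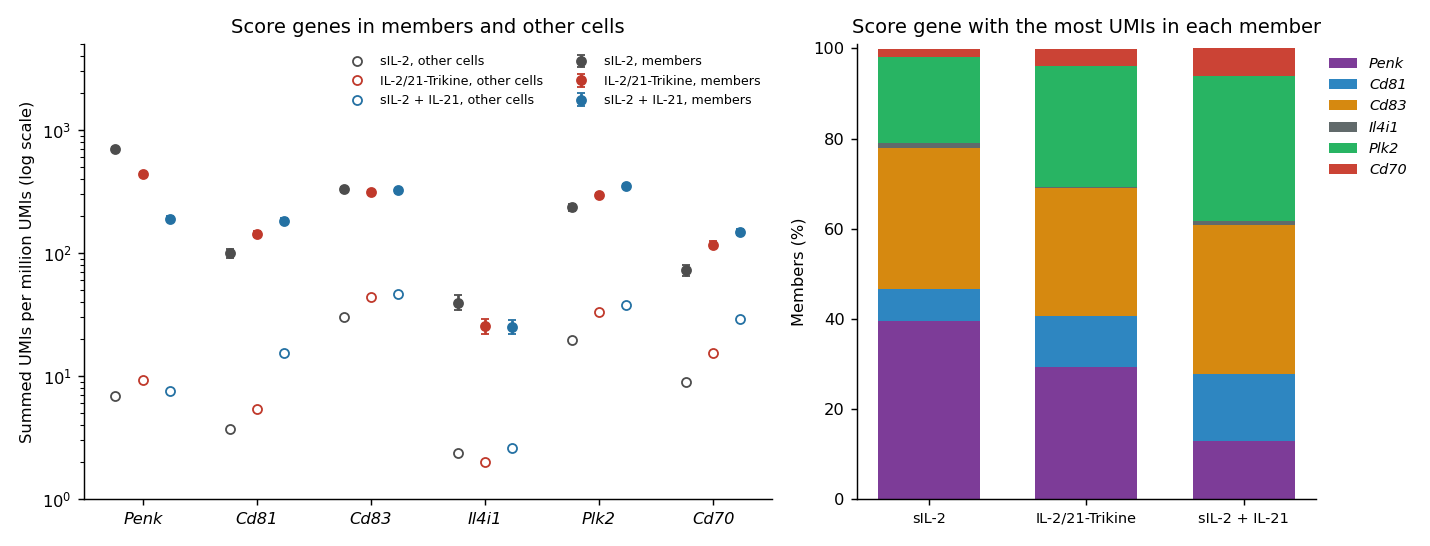
Left, CPM (log axis) of each score gene in members (filled, with exact Poisson 95% intervals) and other cells (open) of the 3 libraries; right, percent of members in which each gene had the most UMIs of the 6. Penk falls from 698 to 189 CPM across the libraries and leads in 39.6%, 29.3% and 12.8% of members, while Cd83 stays between 312 and 330 CPM.

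The levels of the 6 genes in each other's cells were described with each gene left out of the score in turn. The 6 genes had been grouped with these data known, so the ratios describe their co-detection and are no support for the grouping. All 6 were higher in the cells taken on the other 5 than in the rest, in 3 of 3 libraries. Il4i1 differed most, with log2 ratios of 3.79 (3.52 to 4.06) under sIL-2, 3.30 (3.03 to 3.56) under IL-2/21-Trikine and 2.78 (2.53 to 3.02) under sIL-2 + IL-21, followed by Cd81 at 2.55, 3.01 and 2.24. Penk, left out, was at 153, 111 and 64.7 CPM in the cells taken and at 30.1, 27.3 and 14.8 CPM in the rest, a log2 ratio of 2.35, 2.02 and 2.13. Cd83 had ratios of 1.69 to 2.12, Plk2 of 1.62 to 2.12 and Cd70 of 1.51 to 2.14. These intervals cover counting error only.

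**Figure D2:**
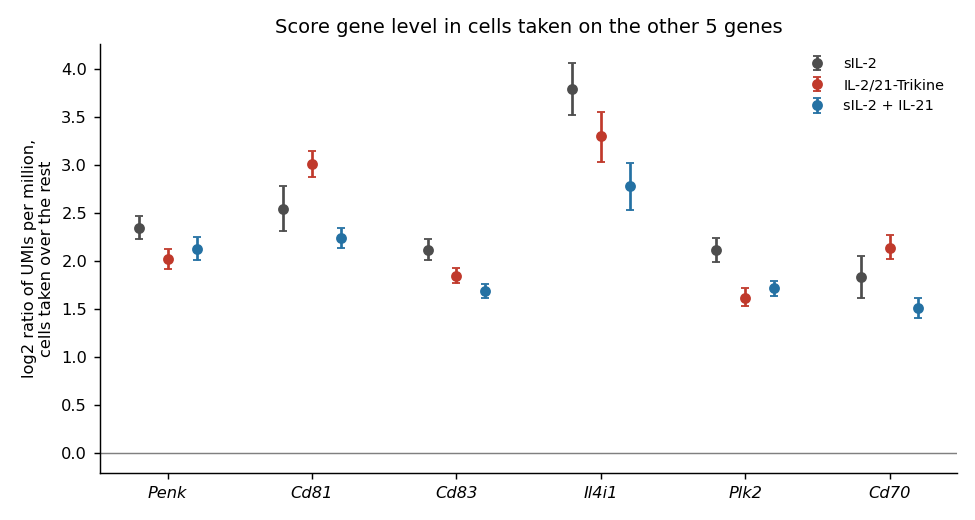
log2 ratio of the CPM of each score gene between the 5% of cells taken on the other 5 genes and the remaining cells, by library, with 95% counting intervals (exact, conditional on the summed counts). As the 6 genes had been grouped with these data known, the points describe sizes only, from 1.51 for Cd70 under sIL-2 + IL-21 to 3.79 for Il4i1 under sIL-2.

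Pairs differed in strength. With every cell thinned to 2000 UMIs, Il4i1 was found in 2.64% of 2080 cells with Cd83 and in 0.440% of cells without it, a ratio of 6.01, and Cd70 in 12.6% of 523 cells with Cd81 against 2.69% without, a ratio of 4.70. Penk was the loosest partner: Cd81 was found in 4.57% of 634 cells with Penk and in 1.78% without, a ratio of 2.58, and Il4i1 in 0.946% against 0.593%, where the interval of the first (0.348 to 2.05) holds the second. Of the members with a Penk UMI, 57.7% also had Cd83 and 21.4% Cd81, whereas of those with Cd81, 77.5% had Cd83, 72.9% Plk2 and 62.2% Cd70. These last shares are fixed in part by the score and are given as a description.

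The members sat near each other without forming a separate cluster. In 50 principal components built without the score genes, 18.7% of the 20 nearest neighbours of a member were members, against 2.79% for other cells, a ratio of 6.68. The shares were 19.4% and 2.36% under sIL-2, 16.1% and 2.54% under IL-2/21-Trikine, and 20.5% and 3.46% in the third library. A member had a median of 3 member neighbours, 8.15% of members had 10 or more, and 15.9% had none. Neighbours of members led by Penk or Cd81 were 6.35% of that kind and 8.89% of the kind led by Cd83 or Plk2, against 1.03% and 1.64% for neighbours of other cells. Neighbours of members led by Cd83 or Plk2 were 13.5% of their own kind and 5.36% of the kind led by Penk or Cd81.

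Members were most frequent under sIL-2 + IL-21 and least under sIL-2. They were 268 of 7494 cells under sIL-2 (3.58%, exact binomial interval 3.17 to 4.02), 529 of 11524 under IL-2/21-Trikine (4.59%, 4.22 to 4.99) and 626 of 9434 under sIL-2 + IL-21 (6.64%, 6.14 to 7.16). The share under sIL-2 + IL-21 was 1.86 times that under sIL-2 (1.61 to 2.15), and that under IL-2/21-Trikine was 1.28 times that under sIL-2 (1.11 to 1.49) and 0.692 times that under sIL-2 + IL-21 (0.615 to 0.778). The order was the same in all 15 other settings run, among them other depth limits, thinning of every cell, equal weight of the genes and each score gene left out. The order was steeper without Penk: without Penk in the score the shares were 2.91%, 4.25% and 7.58%, and the ratio of sIL-2 + IL-21 to sIL-2 was 2.61. With 1 library a treatment, the spread between mice is not known.

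**Figure D3:**
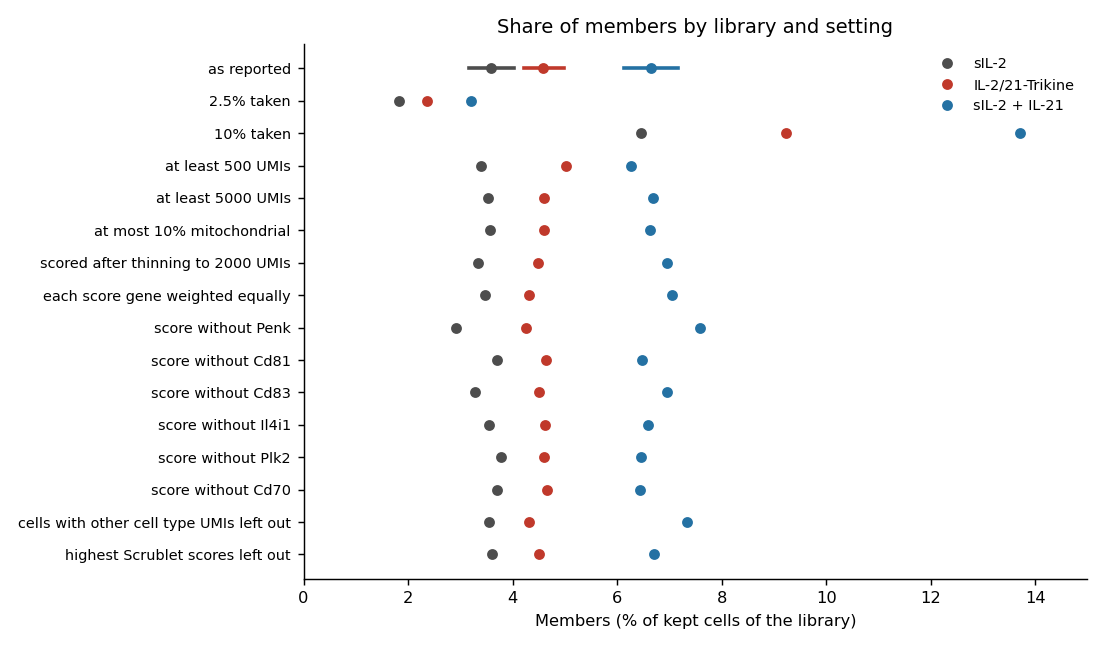
Percent of kept cells of each library that were members (x axis) in the setting reported, with exact binomial 95% intervals, and in 15 other settings (rows). In every row sIL-2 is lowest and sIL-2 + IL-21 highest, from 3.58% to 6.64% as reported.

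Against the other cells of the same library, members had higher levels of Csf2, Ccl1, Tnfsf4 and 15 of 18 NF-kB genes, and lower levels of 9 of 19 interferon-stimulated genes and of Cxcr3, Cxcr4 and Itga1. UMIs were summed over members and over other cells in each library and the 6 sums compared with edgeR's quasi-likelihood test with the library as a block, the score genes left out. Of 14465 genes tested, 1270 (8.78%) were called at an adjusted p threshold of 0.05, 777 higher (5.37%) and 493 lower (3.41%) in members, and 1263 of them had the same direction in each library. Fold changes were moderate, with 204 genes higher and 65 lower by at least 1 log2 unit, around a median of -0.02 over all genes. The sums of members and other cells did not overlap for 14.3% of all genes. The calls rest on the pairing within libraries, since without the library block 21 genes were called higher and 1 lower, and p-values measure only the consistency between 3 libraries of different treatment.

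Of the cytokine and chemokine genes among the 15 named higher genes, Csf2 and Ccl1 were both spread over most members. Csf2, which encodes the growth factor GM-CSF, was at 2112, 1248 and 1469 CPM in members, and at 529, 295 and 568 CPM in the other cells. All member sums were above all others, and the log2 fold change was 1.82 ± 0.12 (SE, edgeR adjusted p = 4.6e-06). This was a broad difference, with Csf2 UMIs in 210 of 268, 413 of 529 and 503 of 626 members and at most 3.68% of them in a single cell. With cells thinned to 2000 UMIs, 59.0%, 55.2% and 58.8% of members and 21.3%, 17.2% and 30.2% of the other cells had a UMI.

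Ccl1, a chemokine ligand of CCR8, behaved alike. It was at 6468, 4195 and 3131 CPM in members against 1641, 1181 and 1076 CPM in the other cells, a log2 fold change of 1.79 ± 0.083 (edgeR adjusted p = 1.3e-06), with UMIs in 232 of 268, 442 of 529 and 501 of 626 members. Xcl1, the chemokine that attracts cross-presenting dendritic cells, rose by 0.82 and Ccl9 by 0.87 on the log2 scale, although neither passed with DESeq2. In members led by Cd83 or Plk2, Ccl9 was at 41.9, 18.4 and 17.4 CPM. The other cells had 28.5, 25.1 and 24.6 CPM, so these members were above them only under sIL-2. Ccl5 went the other way, at 1830, 369 and 549 CPM in members and 2297, 971 and 917 CPM in other cells (log2 fold change -0.81; not called with DESeq2), as did Cxcl10 (-0.80; not called with DESeq2 or with other cells matched on total UMIs). Of 10 chemokine ligands tested, 4 were higher, 2 lower and 4 did not pass, with a median of 0.68.

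Among 14 cytokine genes, 6 were higher, 1 lower and 7 did not pass, with a median of 0.65. Besides Csf2 they included Lif, Tgfb1 and Csf1, the macrophage growth factor (log2 fold change 0.67). Lif was at 5.29, 4.05 and 3.18 CPM in members and 1.92, 0.951 and 1.64 CPM in others (1.5). Its UMIs were in 13, 15 and 20 members, and it was not called without cells holding 3 or more UMIs of other cell types. Tgfb1 was at 281, 182 and 187 CPM in members and 159, 111 and 124 CPM in others (0.71). Areg was called too (0.88), but its UMIs were in 9, 26 and 15 members, and without the highest member of each library it was at 14.8, 15 and 7.07 CPM against 15.1, 8.80 and 7.42 CPM in others, lower in 2 of 3 libraries. It was not called with scoring after thinning, without cycling cells or with matched totals. Ifng, which encodes interferon-gamma, was at 1615, 1028 and 694 CPM in members and 846, 599 and 664 CPM in other cells (0.60). In members led by Cd83 or Plk2 it was above the other cells only under sIL-2, and its call was also lost with DESeq2, with cycling cells left out and without the IL-2/21-Trikine library. The lower gene was Il4 (-1.92), at 0.82 CPM or less in members, and its direction turned with scoring after thinning (1.0). Il2 and Il3 did not pass, and single cells held much of their UMIs, 716 of 954 for Il2 in members under sIL-2. Both were called higher without the sIL-2 + IL-21 library (Il2 1.95 and Il3 2.07).

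Of 20 genes of TNF and CD28 family costimulation, 11 were higher, 2 lower (Icos and Cd40lg) and 7 did not pass, with a median of 0.43. Tnfsf4, which encodes OX40 ligand, was at 98.3, 62.6 and 61.5 CPM in members and 29.1, 22.3 and 22.6 CPM in the other cells, a log2 fold change of 1.57 ± 0.085 (edgeR adjusted p = 3.8e-06) with no overlap of the 6 sums, and it was also called without the library block. Its receptor gene Tnfrsf4 rose as well, by 0.74, so that both genes of the OX40 pair were higher. Tnfsf9, the 4-1BB ligand gene, was at 109, 77.0 and 82.6 CPM against 41.4, 29.3 and 39.8 CPM (1.28), and Tnfrsf9, its receptor gene, at 1394, 988 and 890 CPM against 934, 734 and 704 CPM (0.45). Tnfsf11, the RANK ligand gene, was higher by 1.0 and Tnfsf8, the CD30 ligand gene, by 0.66, while Icos, a costimulatory receptor of the CD28 family, was lower (-0.39).

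NF-kB factors and targets had the highest share of called genes among lists with 7 or more tested, with 15 of 18 genes higher, none lower and 3 not passing, beside 5.37% called higher over all genes; the median was 0.44. Nfkbia, the inhibitor that NF-kB itself induces, was at 2734, 2137 and 2082 CPM in members and 1479, 1319 and 1424 CPM in others (0.71), with no overlap. Rel, the lymphocyte subunit c-Rel, was at 931, 686 and 646 CPM against 509, 450 and 345 CPM (0.80), Nfkb2 rose by 0.74, Nfkb1 by 0.47 and Bcl2a1d, an anti-apoptotic target, by 0.69. Cd83 and Cd70, although scored, are themselves known as NF-kB targets, so this list is not unrelated to the choice of cells.

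Of genes induced by antigen receptor and calcium signals, 12 of 23 were higher, 1 was lower and 10 did not pass (median 0.37). Nr4a2, an orphan nuclear receptor, was at 886, 580 and 625 CPM in members and 557, 398 and 384 CPM in others (0.64), Irf8 at 450, 306 and 372 against 255, 193 and 229 CPM (0.73), and Junb at 2100, 1323 and 1476 against 1281, 893 and 915 CPM (0.66). Of the phosphatase genes of the list Dusp4 and Dusp6 rose by 0.82 and 0.76, while Dusp2 (0.28, edgeR adjusted p = 0.051) and Dusp5 (-0.13) did not pass. Dusp14, a negative regulator of T cell receptor signals outside the list, was at 127, 79.2 and 96.9 CPM in members and 30, 17.4 and 35.6 CPM in others, a log2 fold change of 1.90 ± 0.12 (edgeR adjusted p = 4.8e-06). Egr3 was lower by -0.58, a call lost with other cells matched on total UMIs and with 10% of cells taken. Immediate early genes are also induced by tissue dissociation: of 14 genes of that response, 6 were higher (median 0.24; Fos, Fosb, Junb, Jund, Ier2 and Dusp1), 1 was lower and 7 did not pass, and its summed level was 6072, 4348 and 4943 CPM in members and 4167, 3232 and 3658 CPM in others. The calls of Fos and Ier2 were lost with scoring after thinning and without the IL-2/21-Trikine library. Both were also lost without cells holding 3 or more UMIs of other cell types, at 0.04 and 0.13. The part of dissociation in these results was not tested.

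Among genes of the IL-2 and STAT5 response, 7 of 20 were higher, 1 lower and 12 did not pass (median 0.15). Bcl2l1, which encodes the survival protein BCL-XL, was at 391, 232 and 222 CPM in members and 152, 107 and 123 CPM in others (1.12), Ccnd2, a D cyclin gene, at 916, 599 and 544 against 424, 391 and 356 CPM (0.78), and Il2ra, the high-affinity IL-2 receptor chain gene, at 617, 411 and 403 against 384, 276 and 308 CPM (0.55). Prdm1, which encodes the effector factor Blimp-1, was lower by -0.92. Of 12 genes of the IL-21 and STAT3 response, 2 rose, Il21r by 0.84 and Stat3 by 0.56, and 10 did not pass (median -0.16). The list of p53 targets and polo-like kinases had 7 of 16 genes higher and none lower (median 0.10), with Plk1, Plk3 and Plk4 among those that did not pass. Among the p53 targets, Cdkn1a, the cell cycle inhibitor p21, was at 765, 322 and 316 CPM in members against 473, 202 and 271 CPM (0.53), and Gadd45b, a stress-response gene, rose by 0.70.

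The 15 named genes with the largest rise also held genes with no common list. Dthd1, a death domain gene, had the largest fold change among genes called with 1 direction in all 3 libraries and 20 CPM or more in the mean, at 31.9, 31.5 and 17.8 CPM in members and 6.24, 6.36 and 5.22 CPM in others (2.15 ± 0.13, edgeR adjusted p = 4.6e-06). Kcnk10, a potassium channel gene, was at 28.6, 29.9 and 43.4 CPM against 7.33, 7.16 and 12.4 CPM (1.94), Crtam, an adhesion receptor of activated CD8+ cells, at 445, 277 and 232 against 152, 129 and 88.0 CPM (1.36), and Nrgn, which encodes the calmodulin-binding protein neurogranin, at 370, 379 and 618 against 130, 148 and 279 CPM (1.34). Slc16a11 and Cep85l rose by 1.61 and 1.38. Dthd1, Kcnk10, Slc16a11, Cep85l, Cd63, H2-Aa and Zbtb46 were under 20 CPM in the other cells of each library. They met the floor through members alone, so the ranking of rises is in part set by the floor. Cd63, a tetraspanin of lysosomes and cytotoxic granules, had a log2 fold change of 2.01, but 202 of its 269 UMIs in members under IL-2/21-Trikine were in 1 cell; without cells that held 10 or more UMIs of other cell types it was 1.5 (adjusted p = 9.7e-05). Of 18 tetraspanins and CD81 partners, 7 were higher, among them Cd9 (1.06) and Cd82 (0.49), 4 were lower, among them Ifitm1 (-0.66), and 7 did not pass (median 0.15).

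**Figure D4:**
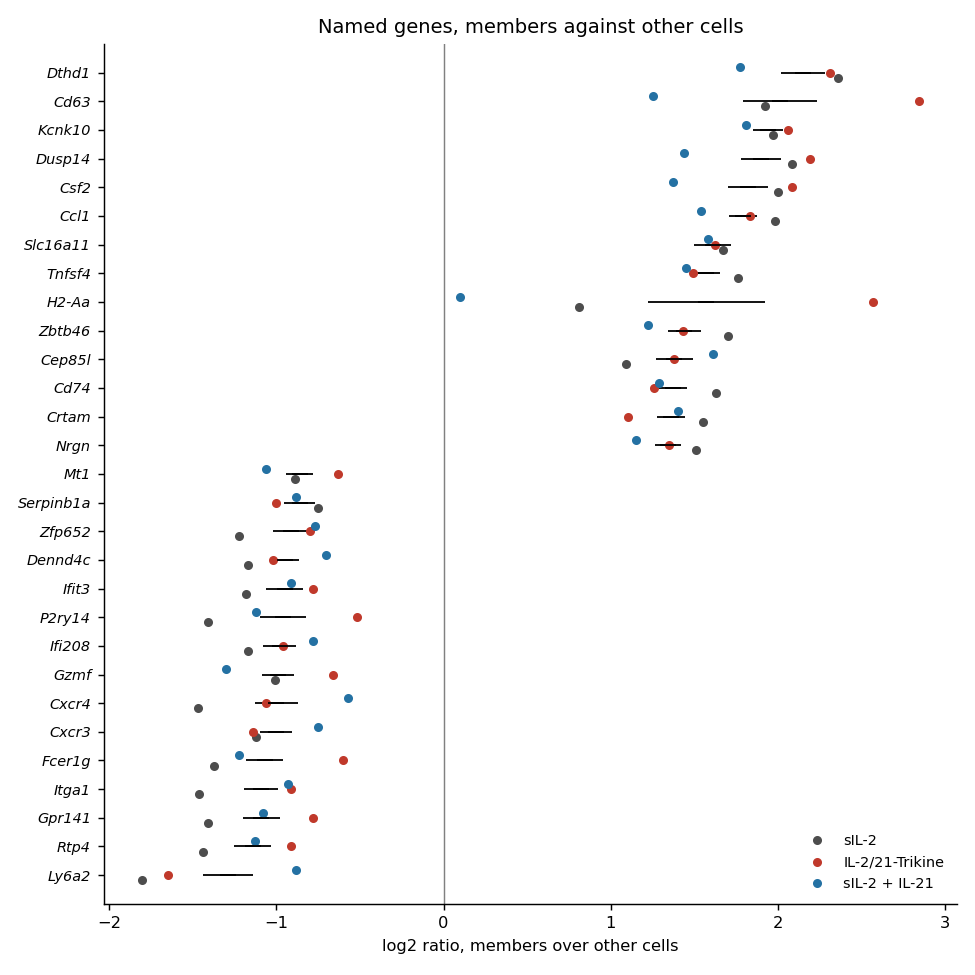
log2 ratio of members over other cells for 14 of the 15 genes with the highest and the 15 with the lowest fitted fold change under the naming rule. Dots are the 3 libraries and black marks the fitted fold change with its standard error; H2-Aa and Cd63 are spread furthest, from 0.10 to 2.57 and from 1.25 to 2.84.

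Chemokine receptors split. Ccr7, which guides T cells to lymph nodes, was at 745, 801 and 651 CPM in members and 275, 445 and 216 CPM in others, a log2 fold change of 1.30, with UMIs in 210 of 268, 453 of 529 and 506 of 626 members. Ccr8, the receptor of CCL1, was higher as well, at 9.40, 7.04 and 5.12 CPM against 4.43, 3.47 and 2.29 CPM (1.09, adjusted p = 0.00075; not called with matched totals). So was Ccr4, at 4.90, 3.10 and 5.23 against 2.60, 1.68 and 3.0 CPM (0.86, adjusted p = 0.013; a call lost in 5 of 15 alternatives). Other receptors were lower: Cxcr3 at 23.1, 20.8 and 14.2 CPM against 50.3, 45.6 and 23.9 CPM (-1.0 ± 0.095, edgeR adjusted p = 5.8e-05). Cxcr4 was at 17.0, 17.5 and 17.7 against 47.3, 36.5 and 26.4 CPM (-1.0) and Ccr2 at 119, 115 and 144 against 222, 152 and 186 CPM (-0.54). Of 10 receptors tested, 3 were higher, 5 lower and 2 did not pass (median -0.07). Residency genes were lower in 3 of 11 and higher in 1 (median -0.23). Itga1, the collagen-binding integrin chain CD49a, was at 23.9, 17.8 and 14.3 CPM against 65.6, 33.3 and 27.3 CPM (-1.09). Rgs1 was lower (-0.45) and Rgs16 higher (0.78). S1pr1, the egress receptor, was lower as well, by -1.43, at 5.12 to 7.05 CPM in members and 10.8 to 24.4 CPM in others. Stem and memory genes were 2 higher, 3 lower and 11 not passing of 16 (median -0.23): beside Ccr7, Bach2 rose by 0.39, and Lef1 was lower by -0.75. Tcf7 had -0.28 and did not pass. It was called lower with cycling cells left out (-0.55), without cells carrying 3 or more UMIs of other cell types (-0.80), without the filter on low counts (-0.33) and without the sIL-2 + IL-21 library (-0.60).

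No interferon-stimulated gene was higher. Of 19 tested, 9 were lower and 10 did not pass, with a median of -0.39 beside 3.41% called lower over all genes. Rtp4 was at 18.6, 18.4 and 6.56 CPM in members and 50.5, 34.4 and 14.4 CPM in others (-1.14 ± 0.11, edgeR adjusted p = 4.9e-05), Ifit3 at 18.2, 15.3 and 3.59 against 41.3, 26.1 and 6.72 CPM (-0.95), and Isg15, a ubiquitin-like modifier, at 104, 92.3 and 37.2 against 143, 123 and 46.1 CPM (-0.39). The 6 sums of each of these 9 genes overlap, since the lowest levels of members and others alike were under sIL-2 + IL-21, and the calls rest on the difference within each library.

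Effector molecules of killing did not rise as a group. Of 13 granzyme and perforin genes, 2 were higher, 3 lower and 8 did not pass (median -0.14). The higher genes were Gzmm, at 7.05, 9.30 and 10.5 CPM in members and 5.15, 4.48 and 5.29 CPM in others (0.87), and Nkg7. Nkg7 was at 1621, 1394 and 1294 against 1343, 1158 and 1119 CPM (0.25). Gzmf was at 322, 147 and 526 CPM in members and 650, 233 and 1294 CPM in others (-0.99; not called with scoring after thinning), and Gzmk was lower by -1.84, at 4.51, 1.67 and 5.23 against 28.8, 4.28 and 14.1 CPM. Gzma was lower by -0.28, a call lost in 6 of 15 alternatives, and Gzmb, the main granzyme of CD8+ cells, had -0.13 and did not pass. Inhibitory receptor genes went both ways, 6 of 19 higher, 5 lower and 8 not passing (median 0.11). Lag3 was at 145, 86.1 and 79.5 CPM in members and 91.1, 64.1 and 53.6 CPM in others (0.56). Cd200 rose by 1.07 and the exhaustion factor Tox by 0.72 (not called with DESeq2 or with matched totals). Havcr2, which encodes TIM-3, was lower at 111, 41.6 and 89.1 against 150, 59.3 and 149 CPM (-0.56; not called without cells holding 3 or more UMIs of other cell types), Entpd1, which encodes CD39, by -0.74 and Ctla4 by -0.39, a call lost in 6 of 15 alternatives. Pdcd1, which encodes PD-1, had 0.11 and did not pass, but was called higher without cycling cells (0.23) and without cells holding 3 or more (0.46) or 10 or more (0.25) UMIs of other cell types.

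Of 7 MHC class II presentation genes, 3 were higher, none lower and 4 did not pass (median 0.58), and only Cd74 kept its call in every alternative with the library block. Cd74, the invariant chain of MHC class II, was at 43.9, 123 and 78.7 CPM in members and 14.2, 51.4 and 32.3 CPM in others, a log2 fold change of 1.37 ± 0.087 (edgeR adjusted p = 4.6e-06) with UMIs in 27.6%, 44.8% and 45.7% of members and 9.83%, 25.2% and 24.6% of others. It was 1.36 without cells that held 10 or more UMIs of other cell types. H2-Aa, an MHC class II chain, was called higher (1.57, adjusted p = 0.017), but 365 of its 569 UMIs under IL-2/21-Trikine lay in 1 cell, and it was at 0.39 and not called without the IL-2/21-Trikine library. H2-Eb1 (1.16) was not called without that library either (0.67). Leaving out cells with 10 or more UMIs of other cell types gave 0.32 for H2-Aa (adjusted p = 0.60) and 0.40 for H2-Eb1 (adjusted p = 0.33). These genes are counted in that filter, which removes the cells highest in them. Zbtb46, a factor known from dendritic cells, was in contrast spread over 108 of 268, 183 of 529 and 210 of 626 members, at 50.3, 38.0 and 41.7 CPM against 15.5, 14.2 and 17.9 CPM, and was 1.40 without such cells although it is counted in the filter too.

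Other cell types were present at trace level. At least 10 UMIs of myeloid, dendritic, B cell, melanoma, erythroid and stromal genes were in 8.22% of members and 10.9% of other cells, and 3 members, all under IL-2/21-Trikine, had 100 or more. By library the shares were 12.7%, 6.24% and 7.99% of members and 13.7%, 5.33% and 15.6% of others. At least 3 such UMIs were in 50.7%, 43.9% and 50% of members and 45.3%, 33.2% and 49.0% of others (47.9% against 41.6% in all). The direction thus depended on the limit over all cells, under sIL-2 and under sIL-2 + IL-21. Under IL-2/21-Trikine the share was higher in members at both limits. The melanoma list, with Dct its most abundant gene, summed to 114 CPM in members under IL-2/21-Trikine and to 2.55 and 5.12 CPM under sIL-2 and sIL-2 + IL-21, against 6.88, 4.33 and 2.25 CPM in the other cells. Of 6 melanoma genes tested (median 2.69) only Dct passed (2.89), with 258 of its 279 UMIs under IL-2/21-Trikine in 1 cell, and its log2 fold change was 1.21 without cells holding 10 or more such UMIs (adjusted p = 0.059), a filter that counts Dct itself. The direction of Dct turned with scoring after thinning and without Cd81 in the score. Myeloid genes were lower in 7 of 15 and higher in none (median -1.04), summing to 82.9, 57.4 and 96.9 CPM in members and 224, 93.6 and 225 CPM in others. Adgre1 was at 0 in members. The most abundant, Fcer1g, which activated T cells can also express, was at -1.07, and at -0.17 without those cells (adjusted p = 0.50), a filter that counts Fcer1g itself and so removes the cells highest in it. Dendritic genes were higher in 5 of 11 and lower in none (median 1.21), Zbtb46, H2-Aa, H2-Eb1, Cacnb3 (1.57, 2.62 and 1.74 CPM in members, 0.545, 0.415 and 0.652 CPM in others) and Ccl22, which was at 21 UMIs in members under IL-2/21-Trikine, 14 of them in 1 cell, and at 2 UMIs or fewer in members of the other libraries. They summed to 97.6, 196 and 83.9 CPM in members and 59.1, 74.2 and 62.5 CPM in others, with Zbtb46 the most abundant and Clec9a, Siglech and Cd209a at 0. No B cell gene of 3 tested passed (median 0.34; 24.1, 30.8 and 24.7 CPM against 19.7, 32.2 and 12.2 CPM; Ighm most abundant), and Ms4a1, Pax5, Blnk and Igkc were at 0. Of 7 NK genes, 3 were lower (Klrb1c, Klra7 and Tyrobp, list median -0.75). The list summed to 641, 583 and 554 CPM against 737, 650 and 488 CPM, with Klrk1, which CD8+ T cells express as well, the most abundant. Klra7 had 1, 0 and 0 UMIs in members. Without cells holding 3 or more UMIs of other cell types, Klrb1c and Tyrobp were not called and Klra7 was not tested. Klra7 and Tyrobp were also not called without cells holding 10 or more. Both erythroid genes tested were lower (median -4.80), the sums differing in the sIL-2 library, where they were at 0.784 CPM in members and 71.9 CPM in others, against 0.239 and 0.16 CPM and 0.512 and 0.532 CPM in the other libraries. Hbb-bs was the most abundant and was not called with DESeq2, and Hba-a1 and Hba-a2 were at 0 in members. Of 6 CD4 and regulatory T cell genes, 2 were higher (Il2ra and Ikzf2) and 2 lower (Cd40lg and Ctla4; median 0.37), and neither of 2 stromal genes tested passed (median 0.81; Pecam1 most abundant; Col1a1, Col1a2, Col3a1, Cdh5 and Kdr at 0). The part of these cells in other results was not tested beyond the values without them.

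Other lists had few higher genes. No S phase gene of 20 passed (median -0.21), and of 20 G2 and mitosis genes 4 were lower and 16 did not pass (median -0.39). Birc5, which encodes the mitotic protein survivin, was at 37.2, 141 and 163 CPM in members and 109, 160 and 228 CPM in others (-0.65; not called with DESeq2, with cycling cells left out, with scoring after thinning or with 10% taken). No sterol synthesis gene of 15 passed (median -0.02). Of 19 glycolysis and hypoxia genes 5 were lower and 1 higher (median -0.19), of 12 heat shock genes 1 was lower (-0.14), and of 17 ATF4 and amino acid response genes 3 were higher and 1 lower (-0.08). Of 5 nuclear-retained RNAs 1 was higher, Mir155hg, the host of the activation-induced miR-155 (0.95; list median -0.07). Of 6 metallothionein genes and neighbours 1 was higher and 2 lower (-0.08), Mt1 at 112, 127 and 502 CPM against 208, 197 and 1044 CPM (-0.86; not called without cells holding 3 or more UMIs of other cell types) and Mt2 (-0.63; not called without those cells, without cells holding 10 or more or without cycling cells). Beside the scored Penk, none of 4 opioid and prohormone genes tested passed (median 0.04), and Pdyn, Oprd1, Oprk1, Oprl1 and Mme had no UMI in members. Of 7 genes of the aryl hydrocarbon receptor and tryptophan pathway, in which Il4i1 products act, none was higher and 2 were lower (median -0.14).

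**Figure D5:**
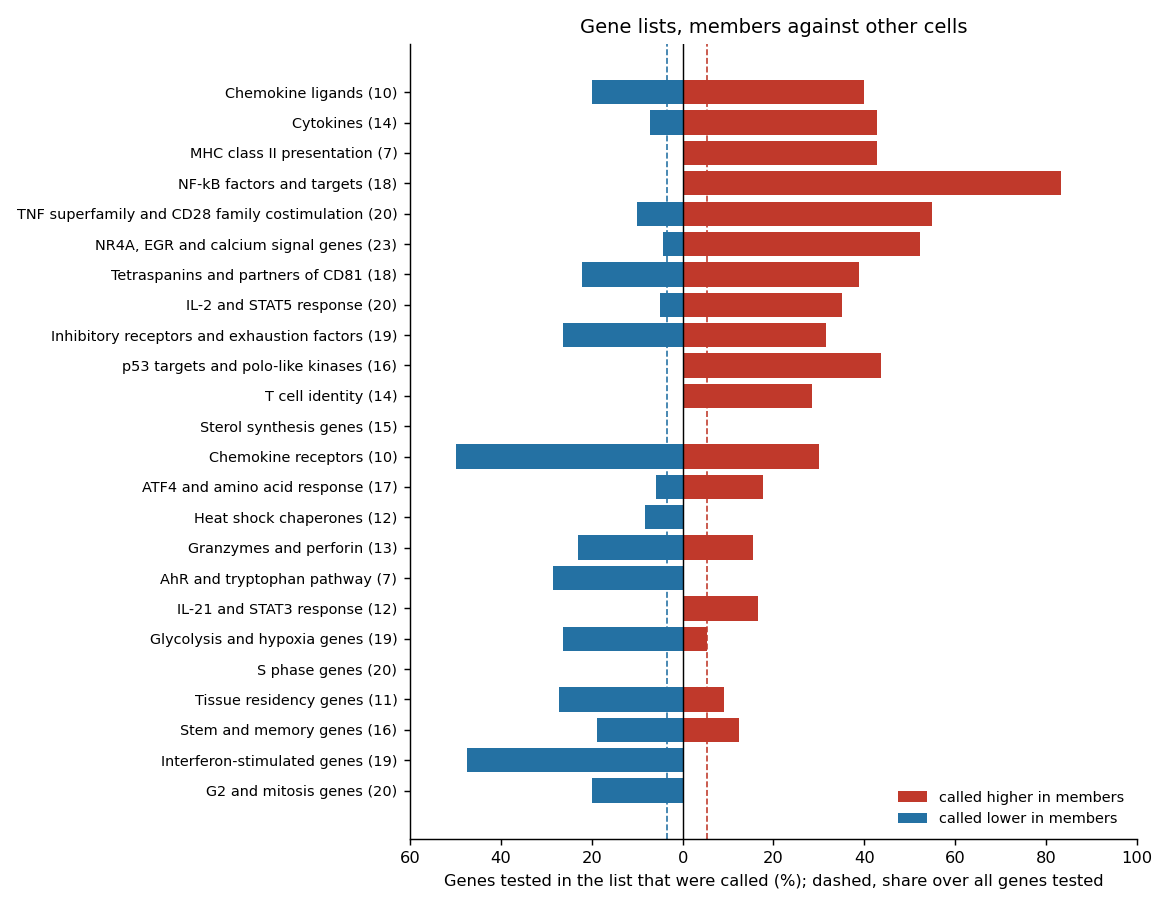
Percent of tested genes of each list (number tested in brackets, ordered by median fold change) called higher (right) or lower (left) in members. Dashed lines mark the shares over all 14465 genes, 5.37% and 3.41%; NF-kB genes reach furthest right with 15 of 18 and no interferon-stimulated gene is to the right.

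The remaining lower genes among the 15 named were Ly6a2 (8.82, 5.49 and 26.8 CPM in members, 30.7, 17.2 and 49.5 CPM in others, -1.29 ± 0.15, edgeR adjusted p = 0.00019), the orphan receptor gene Gpr141 (-1.09), the interferon-inducible Ifi208 (-0.98), P2ry14, a receptor for UDP-sugars (-0.96), Dennd4c (-0.95), Zfp652 (-0.91) and Serpinb1a, a protease inhibitor gene (-0.86). The naming rule required the same direction in all 3 libraries. Of the 15, Ly6a2, Rtp4, Itga1, Gpr141, Cxcr3, Cxcr4, Ifi208, P2ry14, Ifit3, Zfp652 and Serpinb1a had a mean under 20 CPM in members. They met the floor through the other cells alone, so the ranking of falls is in part set by the floor.

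Within members, 204 of 5727 genes with at least 20 CPM differed by 2-fold or more between IL-2/21-Trikine and sIL-2 (3.56%), 208 of 5749 between sIL-2 + IL-21 and sIL-2 (3.62%) and 52 of 5671 between the last 2 libraries (0.917%). These are sums of 268 to 626 cells of 1 library each, with no test. With 5% of cells taken within each library, the counts of genes were 136, 111 and 57 in the same order. A gene could meet the floor in 1 of the 2 libraries alone, as Ccna2 did (55.7 CPM under IL-2/21-Trikine and 12.7 CPM under sIL-2), so these counts and the ratios named are in part set by the floor. G2 and mitosis genes summed to 710 CPM in members under sIL-2 and to 1889 and 1895 CPM in the other 2 libraries, while the other cells had 1429, 1910 and 2224 CPM. Nusap1, a spindle gene, was at 104 CPM in members under IL-2/21-Trikine and 22.3 CPM under sIL-2, a log2 ratio of 2.22 (1.94 to 2.52), against 0.86 in the other cells. Rrm2, a ribonucleotide reductase gene, had 2.12 against 0.74. Ccna2 and Kif11 had 2.13 and 2.03 against 0.52 in the other cells each. Birc5, H1f5 and Prc1 had 2.13, 2.15 and 2.02 for sIL-2 + IL-21 over sIL-2, against 1.06, 0.72 and 0.70. The G2 and mitosis sum was thus lowest in members under sIL-2 among the 6 sums, while the members of the other 2 libraries differed little in it.

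Part of the differences was also found in the remaining cells. Under IL-2/21-Trikine over sIL-2, 142 genes were past 2-fold higher in members and 6 in the other cells, with 5 in common, and 62 and 31 were lower, with 24 in common. For sIL-2 + IL-21 over sIL-2, 140 and 43 were higher with 34 in common, and 68 and 79 lower with 26 in common. For IL-2/21-Trikine over sIL-2 + IL-21, 19 and 30 were higher with 13 in common, and 33 and 44 lower with 28 in common. The floor was set on the members and not on the other cells. Mt1 was at 502 CPM under sIL-2 + IL-21 and 112 CPM under sIL-2 in members, a log2 ratio of 2.16, and 2.33 in the other cells. Ccl5 was lower under IL-2/21-Trikine than under sIL-2 by a log2 ratio of -2.31 in members and -1.24 in others, Gzmd by -3.33 and -1.91 and Gzme by -2.38 and -1.89. Against sIL-2 + IL-21, members under IL-2/21-Trikine had less Klra5 (-2.19, others -2.11), Il1r2, a decoy receptor for IL-1 (-2.11, others -2.72), Mt1 (-1.98), Gzmd (-1.97) and Mt2 (-1.95). They had more Isg15 (1.31, others 1.42), Ifi214 (1.09, others 1.54) and Tox (1.03, others 1.92). Crabp2, a retinoic acid binding protein, and Cnih2 were lower under sIL-2 + IL-21 than under sIL-2 (-3.29 and -2.39, others -1.01 and -1.72). H2-Aa, Gzmg, Il2 and Il3 also stood at the ends of this ranking. Gzmg (-3.73 for sIL-2 + IL-21 over sIL-2, others 0.48) and Il3 (1.93 for IL-2/21-Trikine over sIL-2 + IL-21, others -1.56) were opposite in the other cells. In each of the 4 genes 1 cell held 40.4% to 80% of the UMIs of members under sIL-2.

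Members led by Penk or Cd81 (513 cells) and by Cd83 or Plk2 (836 cells) are set side by side as a description, with no test, since the split was made after the values were seen. Of 5617 genes with a mean of 20 CPM or more over the libraries in either kind, 4 differed 2-fold or more the same way in each library (0.0712%), all higher in the Penk or Cd81 kind. Gzmg and H2-Aa met that floor in this kind alone, so for them the count is in part set by the floor, and both rest on single cells. Of 276 Gzmg UMIs in this kind under sIL-2, 183 were in 1 cell, and the second kind held 2, 1 and 4 UMIs. Of 400 H2-Aa UMIs in this kind under IL-2/21-Trikine, 365 were in 1 cell, and in the second kind 142 of 169 UMIs were in 1 cell too. Without the highest cell of each kind, H2-Aa was at 9.59 against 6.27 CPM in that library. Ccl3, an inflammatory chemokine gene, was at 3313, 1510 and 1364 CPM in the first kind and 814, 458 and 362 CPM in the second, and Ccl9 at 116, 58.1 and 49.8 against 41.9, 18.4 and 17.4 CPM. Without the highest cell of each sum Ccl3 was at 2847, 1218 and 1088 against 598, 366 and 338 CPM. Ifng was also higher in the Penk or Cd81 kind in each library, at 2192, 1512 and 893 against 981, 434 and 480 CPM. The Cd83 or Plk2 kind was above the other cells (846, 599 and 664 CPM) under sIL-2 and below them in the other 2 libraries. Ccl4 was higher too, at 4514, 2159 and 1960 against 1743, 1141 and 1038 CPM. The other cells had 2717, 2289 and 1920 CPM of Ccl4 and 1140, 871 and 881 CPM of Ccl3. In both genes they were above the Cd83 or Plk2 kind in each library, and in Ccl4 above the Penk or Cd81 kind under IL-2/21-Trikine. Ikzf2, which encodes the factor Helios, was lower in the Penk or Cd81 kind, at 92.2, 145 and 131 against 231, 262 and 192 CPM. Over all 5617 genes, 24.5% were lower and 15.9% higher in each library in the Penk or Cd81 kind, whatever the size. Of 18 NF-kB genes 12 were lower and 2 higher, the sums being 8115, 5403 and 5158 CPM against 8566, 6601 and 6123 CPM, with the other cells at 5261, 4264 and 4073 CPM. Cd83, on which the second kind was taken, is itself known as an NF-kB target, so the split is not independent of that list. Of 17 genes of the IL-2 and STAT5 response 11 were lower and 2 higher, but the sums were 8546, 6778 and 7948 against 8632, 6580 and 6809 CPM, higher in 2 of 3 libraries. Of 16 glycolysis and hypoxia genes 12 were higher and 2 lower, and of 11 granzyme and perforin genes 8 were higher, Gzmg among them, and 1 lower. The G2 and mitosis sum was 349 against 1108 CPM under sIL-2, 1724 against 2063 CPM under IL-2/21-Trikine and 1926 against 1934 CPM under sIL-2 + IL-21.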

How the data were processed

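Droplet 3' libraries were made by the authors with 10x chemistry and counted with Cell Ranger 9.0.0 per the file headers; the deposited matrices hold raw UMI counts per gene and cell, filtered to called cells, with no further normalization. The labels name the mm10 build and the methods a later one, so no coordinate was taken from the count files. Depth after filtering was 129886211, 165051207 and 167689133 UMIs for sIL-2, then IL-2/21-Trikine, then sIL-2 + IL-21, over 7494, 11524 and 9434 of 7805, 13350 and 9871 deposited cells. Members and gene lists were chosen with earlier results of these data known. Counts summed over members and other cells of each library were tested with edgeR 4.0.16 (R 4.3.3; TMM, filterByExpr, library as block, quasi-likelihood, Benjamini-Hochberg); the code was tested on simulated data. CPM are summed UMIs per 1000000. Shares have exact binomial and ratios exact Poisson 95% intervals, which cover counting error only. Cells tied at a score limit were taken in seeded random order. Named genes were the 15 highest and 15 lowest fold changes among called genes with 1 direction in all 3 libraries and 20 CPM or more, up to 5 per list, and the 5 highest and lowest ratios between libraries at 50 CPM; gene models and receptor segments were left out. Where a list names more, those were chosen after seeing their values. Neighbours were found with scanpy 1.11.5. Scrublet called 4 cells and so did not work as a caller; doublets were not removed, and only its scores were used. Alternatives were DESeq2 1.42.0, other filters, limits and scores, and libraries left out. Some genes that these rules name are not reported here.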

Additional observations from a re-analysis of the deposited data

Results flagged for a closer look

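In 3 flagged genes the members moved in opposite directions in 2 libraries relative to the other cells, a difference that was not tested. Genes that were not flagged changed sign as well, such as Il13 (-1.15 under IL-2/21-Trikine and 1.30 under sIL-2 + IL-21). Gzmg, a granzyme, had a log2 ratio of members over other cells of 0.60 under sIL-2 and -3.62 under sIL-2 + IL-21, where 8 of 268 and 14 of 626 members had a UMI and 1 cell held 65.8% and 47.5% of them. Il2 had 2.61 under sIL-2 and -1.64 under sIL-2 + IL-21; under sIL-2 it was at 187 CPM in members and at 46.9 CPM without the cell that held 716 of 954 UMIs, beside 30.6 CPM in the other cells. Il3 had 2.69 under IL-2/21-Trikine and -0.80 under sIL-2 + IL-21, and was at 103 CPM in members under IL-2/21-Trikine and at 39.7 CPM without its highest cell, beside 15.9 CPM in the other cells.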

How the results depend on the processing

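The order of the member shares was kept in all 15 alternatives, with the ratio of IL-2/21-Trikine to sIL-2 + IL-21 at 0.802 from 500 UMIs, 0.613 with equal weights, 0.561 without Penk and 0.587 without cells holding 3 or more other cell type UMIs, and that of sIL-2 + IL-21 to sIL-2 at 2.61 without Penk. Gene calls numbered 21 higher and 1 lower without the library block, and 1238 lower with no filter on low counts, when more genes were tested. With a library left out, 558 to 727 genes were called higher and 292 to 600 lower, 292 without sIL-2; of the 1270 genes called, 795 to 1005 remained called in the same direction. No paired comparison between treatments was possible because each treatment had 1 library. The library block pairs members and other cells. At 50 CPM, by construction fewer genes were past 2-fold, 94 for IL-2/21-Trikine over sIL-2, 91 for sIL-2 + IL-21 over sIL-2 and 21 for IL-2/21-Trikine over sIL-2 + IL-21, and 111 for sIL-2 + IL-21 over sIL-2 with 5% taken in each library. Scoring after thinning gave median log2 ratios of 1.5 for Penk, 1.47 for Cd83, 2.62 for Il4i1 and 1.40 for Plk2 in cells taken on the other genes; taking 10% gave 1.91 for Penk, and leaving out cells with other cell type UMIs 3.08 for Cd81. The neighbour ratio was 5.45 after thinning. Gzmb turned to 0.05 without cells holding 3 or more other cell type UMIs, 0.00 without cycling cells and 0.10 without the sIL-2 + IL-21 library (-0.28 to 0.10 with a library left out), and Dct to -0.59 with scoring after thinning and -0.18 without Cd81 in the score, and Il4 to 1.0 with scoring after thinning; the cause was not tested. Leaving out cells with 10 or more other cell type UMIs was chosen after seeing the data, and gave 843 genes higher and 525 lower. With 1 library a treatment, a difference between treatments cannot be told apart from one between libraries.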
